A study of Mus musculus with 18 samples.

Results

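The regions described here are the dense clusters of same-direction ATAC-seq peaks in lung epithelial cells of mice given an inhibitor of G9a (G9ai) or vehicle. ATAC-seq uses a transposase to mark open DNA, and a peak is an interval where such marks pile up. Within each sorted population, overlapping peaks of all libraries (1 bp was enough) were joined into a merged region. A merged region was called G9ai-only when every G9ai library of the population listed a peak there and no vehicle library did, and vehicle-only in the opposite case. Autosomal regions of the same set were then joined while the gap to the next was at most 25 kb, and a chain counted when it held 3 or more regions. Of 37229 autosomal regions in 6 sets (3 populations, 2 directions), 5399 lay in 1554 such chains, which is 14.5%. The populations were merged separately, so a place in the genome can count in more than 1 set. The regions were chosen by the presence and absence of peaks in these same lists, so their direction, number and spacing are given as descriptions, with no test.

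The mice were C57BL/6 (c57/bl6 in the labels), 6 to 12 weeks old, with 3 given the inhibitor and 3 given vehicle (labelled G9ai and Vehicle or control); no genetic change is named. Sorted cells carried Epcam and Sca-1 on their surface and lacked CD31 and CD45, and were divided by CD24 into CD24- (CD24neg here), CD24low and CD24high, with 10000 cells per library. The series has 18 samples in 6 groups, and lists of 10 libraries were used: replicates 2 and 3 of each G9ai group and of CD24low vehicle, and replicate 3 of CD24neg and CD24high vehicle. The other 8 samples were not analysed here. CD24neg and CD24high therefore have a single vehicle library, and their directions have no replicate check on that side. The dose, the route and the identity of the inhibitor were not given in the sources used here. Neither do they say how the sorted gates map to cell types, and peak lists hold no expression values against which to check one. In sorted bulk cells, a change in the share of a cell type and a change in accessibility per cell cannot be told apart.

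G9a, encoded by Ehmt2, works with its partner GLP to place methyl groups on lysine 9 of histone H3. The dimethyl form of this mark covers broad stretches of the genome, often many kilobases long, and goes with closed chromatin and silent genes. Active cell-identity genes, by contrast, are often served by several open elements lying close together, which appear as a run of neighbouring peaks. A run of same-direction regions is therefore a natural unit to look at after such a treatment, whichever of these arrangements a given run belongs to.

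Some chains reached gene starts, and the bases just upstream of a start that a member covered are shown first for 7 genes of the named chains, because there the member can be read against a known promoter. The sequences are from RefSeq (GRCm38.p6, the mm10 build), 5′ to 3′ on the gene's strand, and capitals mark matches to the words given below. Socs3, an inhibitor of cytokine signalling, is from a CD24high G9ai-only chain and lies at chr11:117969511-117969616 on the minus strand. Its stretch ends 145 bp before the listed start and lies inside the listed span of the gene (chr11:117966079-117970336). Nectin2, a cell adhesion molecule (chr7:19749574-19749703, minus), and Nr1d1, the clock repressor also called Rev-erb alpha (chr11:98775386-98775627, minus), are from CD24low G9ai-only chains. Nup50, a nuclear pore protein (chr15:84923353-84923427, plus), is from a CD24neg G9ai-only chain. H2bu2, a histone H2B gene (chr11:58948751-58948910, plus), and Lmnb2, which encodes a B-type lamin (chr10:80918246-80918305, minus), are from CD24neg vehicle-only chains. Apc2, a relative of the Wnt pathway gene Apc (chr10:80295887-80295955, plus), is from a CD24high vehicle-only chain.
Socs3: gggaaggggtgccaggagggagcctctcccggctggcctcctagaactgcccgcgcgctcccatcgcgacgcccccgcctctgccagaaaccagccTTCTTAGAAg
Nectin2: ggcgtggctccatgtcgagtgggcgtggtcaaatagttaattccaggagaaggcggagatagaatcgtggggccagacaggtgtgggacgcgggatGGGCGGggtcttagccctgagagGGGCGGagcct
Nr1d1: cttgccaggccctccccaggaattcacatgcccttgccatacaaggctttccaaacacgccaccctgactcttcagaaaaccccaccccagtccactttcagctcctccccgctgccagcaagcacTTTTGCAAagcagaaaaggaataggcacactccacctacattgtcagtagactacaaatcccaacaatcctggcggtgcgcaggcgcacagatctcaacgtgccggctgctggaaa
Nup50: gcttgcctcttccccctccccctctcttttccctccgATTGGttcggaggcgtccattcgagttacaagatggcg
H2bu2: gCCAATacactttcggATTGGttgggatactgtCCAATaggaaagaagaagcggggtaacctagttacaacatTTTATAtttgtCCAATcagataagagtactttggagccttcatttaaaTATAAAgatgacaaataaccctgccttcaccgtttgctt
Lmnb2: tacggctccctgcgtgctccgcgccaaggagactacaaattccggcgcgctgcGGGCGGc
Apc2: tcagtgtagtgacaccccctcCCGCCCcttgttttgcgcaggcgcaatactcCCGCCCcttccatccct

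The stretches differ in make-up. Those of Socs3 and Lmnb2 were 68.9% and 70.0% G and C, while that of H2bu2 was 38.1%, with 4 CCAAT and 2 TATA words. The words searched, on both strands, were the GC box (GGGCGG), the CCAAT box (CCAAT), the TATA box (TATAAA), AP-1 (TGANTCA), STAT (TTCNNNGAA), a nuclear receptor element (AGGTCA), forkhead (TGTTTAC), Runx (TGTGGT), C/EBP (TTGCNNAA) and Nkx2 (CACTTG). In the printed stretches no 2 matches overlapped. Members of named chains also covered stretches at Dnali1, Tnk2 and Ppp1r14a, which are not printed. The Dnali1 stretch held 1 GC box, and those of Tnk2 and Ppp1r14a held none of the words. Over windows from 250 bases before to 50 after a start, the GC box was in 60.8% of the 222 windows that a member overlapped, 59.3% of the 1731 that other regions of 1 direction overlapped, and 47.0% of all 20085. The CCAAT word was in 25.7%, 27.8% and 38.1%, and the STAT word in 9.91%, 6.59% and 7.78%. The median GC content was 59.7% in windows with a member, 61.0% in windows with another region of 1 direction and 57.0% in all. Windows that members overlapped were thus nearer to those of other listed regions than to all windows in the GC box, the CCAAT word and GC content, and a word match is a description of letters, not a bound site.

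The number of members differed widely between the 6 sets. In CD24neg, 31.0% of 12657 merged autosomal regions were G9ai-only and 67.8% vehicle-only. Of the 3920 G9ai-only regions, 190 (4.85%) lay in 59 chains, and of the 8583 vehicle-only regions, 1249 (14.6%) lay in 377 chains. In CD24low the larger set was the other way round: 71.9% of 9741 regions were G9ai-only and 25.1% vehicle-only. There, 823 of 7002 G9ai-only regions (11.8%) formed 244 chains, and 61 of 2448 vehicle-only regions (2.49%) formed 20 chains. That order did not hold with each list cut to its 2552 highest-scoring peaks, where CD24low had 4 G9ai-only and 61 vehicle-only members. The cut left the CD24low vehicle lists, of 2558 and 2552 peaks, almost whole. It left 1222 G9ai-only and 2451 vehicle-only regions, so the 2 sets were still unequal in size. In CD24high, 17.0% of 15402 regions were G9ai-only and 82.1% vehicle-only, with 51 of 2626 G9ai-only regions (1.94%) in 17 chains and 3025 of 12650 vehicle-only regions (23.9%) in 837 chains. The share of a set in chains followed the size of the set, from CD24high vehicle-only downwards, except that the 2 smallest sets changed places.

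Chaining depends on how many regions there are, so each count was set beside the number that the same set would give by placement alone. With the same regions spread evenly over each chromosome, 905 regions in 289 chains would be reached over the 6 sets, and the 5399 counted were 5.96 times as many. The ratio was 9.42 in CD24neg G9ai-only (20.2 regions by even placement), 6.59 in CD24neg vehicle-only (190), 7.77 in CD24low G9ai-only (106), 12.4 in CD24low vehicle-only (4.93), 7.98 in CD24high G9ai-only (6.39) and 5.23 in CD24high vehicle-only (578). Listed regions are not spread evenly in any set, since all sets were denser in the same places, as shown further on. A second placement took the 32636 places where any of the 3 populations listed an autosomal region and gave each the same chance of belonging to the set. It gave 5211 regions in 1489 chains, and the counted regions were 1.04 times that. By set this ratio was 1.21, 1.03 and 1.13 for CD24neg G9ai-only, CD24neg vehicle-only and CD24low G9ai-only. It was 1.44, 0.986 and 1.00 for CD24low vehicle-only, CD24high G9ai-only and CD24high vehicle-only. These places include the set's own regions, 12650 in CD24high vehicle-only and 2448 in CD24low vehicle-only. That pulls the ratio toward 1, most in the largest sets, so differences between sets cannot be read as differences in clustering. Relative to the places where these lists had any region, the members were about as many as the number of regions gives in the CD24high sets and CD24neg vehicle-only, and 1.13 to 1.44 times as many in the other 3. This did not hold under all settings: at equal list length the ratio was 0.576 in CD24low G9ai-only, 0.899 in CD24neg G9ai-only, 0.402 in CD24neg vehicle-only and 2.01 in CD24high vehicle-only, and in the upper 50% of scores it was 0.876 in CD24low G9ai-only and 7.48 in CD24low vehicle-only. Some of these ratios rest on few regions. The 7.48 is 9 regions in 3 chains against 1.20 expected, and the 0.576 is 4 regions in 1 chain against 6.94. All are set against expected values with no spread and no p attached.

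**Figure D1:**
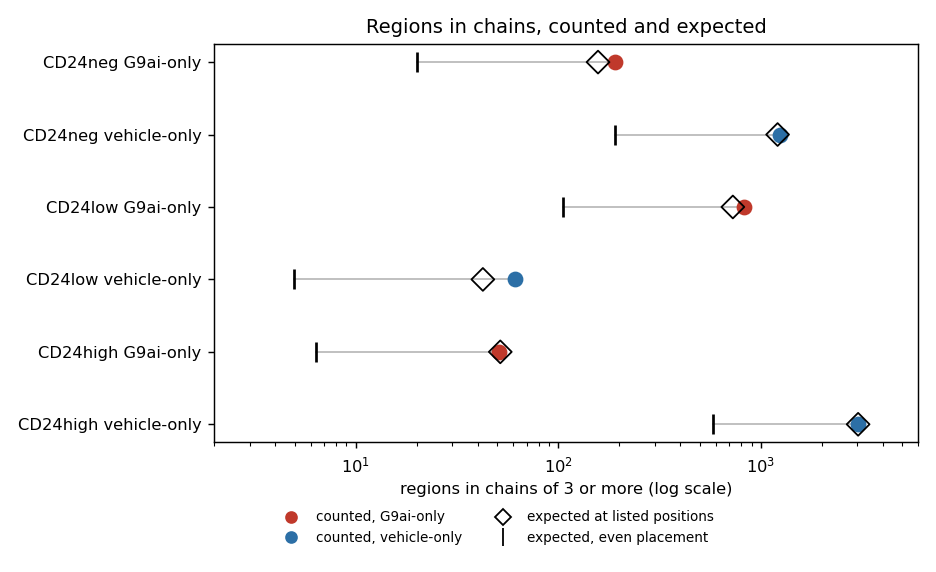
Regions in chains of 3 or more in each of the 6 sets (log axis): dots are the counted regions, vertical ticks the number expected with even placement on each chromosome, open diamonds the number expected when regions are placed at listed positions. All 6 dots lie 5.23 to 12.4 times above the ticks and 0.986 to 1.44 times the diamonds.

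Most chains were short. Chains of 3 made up 79.7% of those in CD24neg G9ai-only, 75.6% in CD24neg vehicle-only, 72.1% in CD24low G9ai-only, 19 of 20 in CD24low vehicle-only, 100% in CD24high G9ai-only and 64.5% in CD24high vehicle-only. Chains of 5 or more numbered 1, 22, 17, 0, 0 and 114 in the same order, and the 10 chains of 8 or more were all CD24high vehicle-only. The largest chain held 5, 6, 7, 4, 3 and 13 regions. The median span was nearly the same in all sets, from 24565 bp in CD24neg vehicle-only to 26657 bp in CD24low vehicle-only, and the longest was 164309 bp in CD24high vehicle-only. The gap limit touched many chains: in CD24high vehicle-only 273 of 837 had a gap over 20 kb. There the widest gap inside a chain was 24993 bp and the narrowest gap just outside the limit was 25007 bp. Beyond the chains lay 4299 pairs and 23232 single regions.

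**Figure D2:**
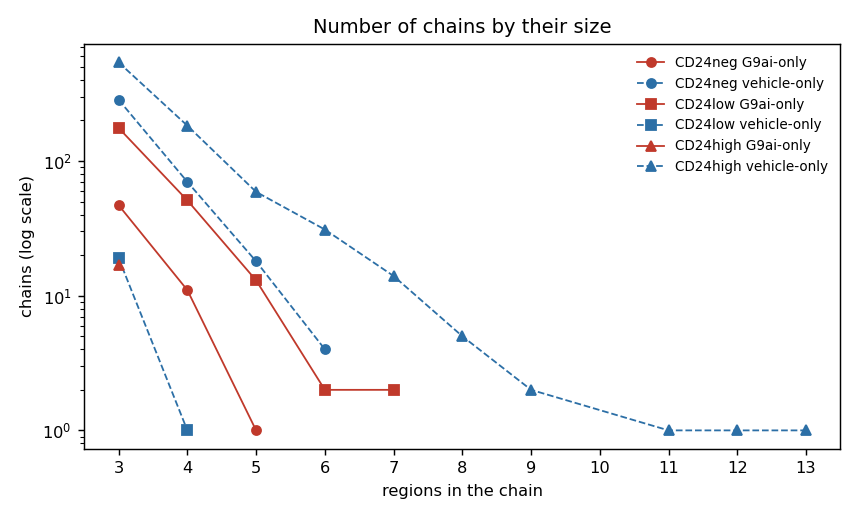
Number of chains (log axis) by the number of regions they held, 1 line per set; G9ai-only solid, vehicle-only dashed. Chains of more than 7 regions appear in CD24high vehicle-only alone, up to 13, with none of exactly 10.

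The chains can also be counted in each library's own list. These counts largely repeat those of the sets, because few listed regions lacked a direction. Of the CD24low merged autosomal regions, for example, 71.9% were G9ai-only and 25.1% vehicle-only. In CD24low, the 2 G9ai lists held 945 and 954 autosomal peaks in chains of 3 or more, and the 2 vehicle lists 73 and 70. The arms did not overlap, at 949.5 ± 6.36 (SD, n = 2) against 71.5 ± 2.12 (SD, n = 2), a ratio of 13.3. These are the lists from which the regions were chosen, so no test is given. In CD24neg the 2 G9ai lists held 260 and 225 such peaks and the vehicle list 1286. In CD24high the 2 G9ai lists held 64 and 64 and the vehicle list 3098. As a share of each list's autosomal peaks, the values were 6.38% and 5.56% against 14.8% in CD24neg, 13.1% and 13.3% against 2.91% and 2.80% in CD24low, and 2.33% and 2.32% against 24.3% in CD24high. The lists differed in length from 2552 to 12985 peaks, and within each population the arm with the longer lists was the arm with more peaks in chains. With every list cut to its 2552 highest-scoring peaks, the CD24low means became 57 and 71.5, a ratio of 0.797, so the order of the arms in CD24low turned. How the deposited lists were drawn from all called peaks is not stated. Each held 3.03% to 13.2% of the highest peak number in its own peak names, so a place missing from a list may still have had a called peak. A list chosen for its arm cannot show how much replicates differ.

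**Figure D3:**
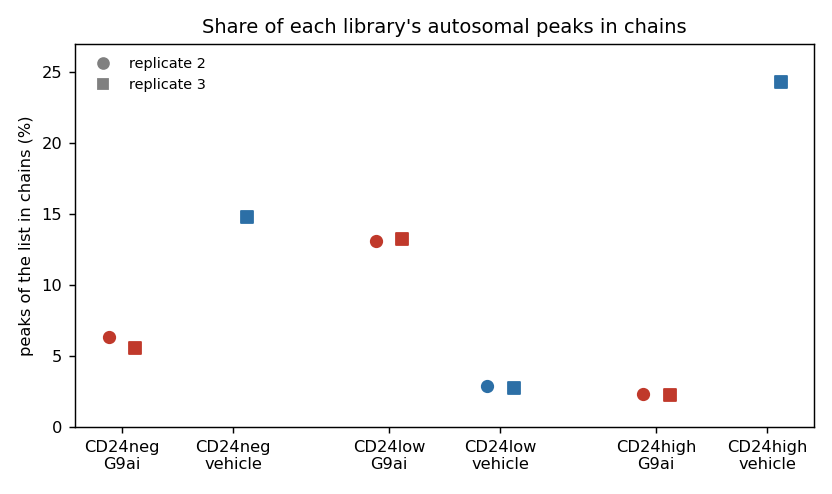
Share of each library's autosomal peaks that lay in chains of 3 or more, in percent; circles are replicate 2, squares replicate 3, with G9ai in red and vehicle in blue. G9ai lists lie above vehicle lists in CD24low (13.1% and 13.3% against 2.91% and 2.80%) and below the vehicle list in CD24neg and CD24high.

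The authors' peak score, whose scale is not stated and which was used here only to rank peaks within a list, was higher in members than in other regions in some sets and lower or alike in others. In CD24neg vehicle replicate 3 the median rank was the 49.8 percentile for members and for the other vehicle-only regions alike. In CD24low G9ai replicates 2 and 3 members had medians at the 53.9 and 49.3 percentiles, against 50.6 and 50.7 for the rest. CD24neg G9ai members were lower, at 47.7 and 40.6 against 51.4 and 51.4. CD24high vehicle-only members were higher, at 56.8 against 47.6, as were the 61 CD24low vehicle-only members, at 64.3 and 54.7 against 49.5 and 49.3, and the 51 CD24high G9ai-only members, at 53.5 and 55.8 against 49.0 and 49.5. Region widths were also much alike, with medians of 143 to 210 bp for members and 141 to 211 bp for other regions.

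Chains held regions of every other set at higher density than the autosomes as a whole. Inside the 59 CD24neg G9ai-only chains there were 19.1 vehicle-only regions of the same population per Mb, against 3.59 per Mb over the autosomes. Inside the 837 CD24high vehicle-only chains there were 5.93 CD24high G9ai-only regions per Mb, against 1.10. Over the 6 sets, the opposite direction of the same population was 4.52 to 6.71 times as dense inside chains, and 13.5% to 47.1% of chains held at least 1 such region. Regions of the other 2 populations were 5.19 to 12.5 times as dense. Their balance of directions inside the chains was close to that over all autosomal regions in several cases: of the CD24low regions inside CD24neg G9ai-only chains 73.5% were G9ai-only, against 74.1% overall. The widest departures were 29.2% against 17.2%, for the 19 G9ai-only and 46 vehicle-only CD24high regions inside CD24neg G9ai-only chains, and 85.7% against 74.1%, for the 12 and 2 CD24low regions inside CD24high G9ai-only chains. Some chains in 1 direction therefore also held the other direction, while most chains of every set held none of it. Dense places in 1 population were dense in the others in both directions.

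**Figure D4:**
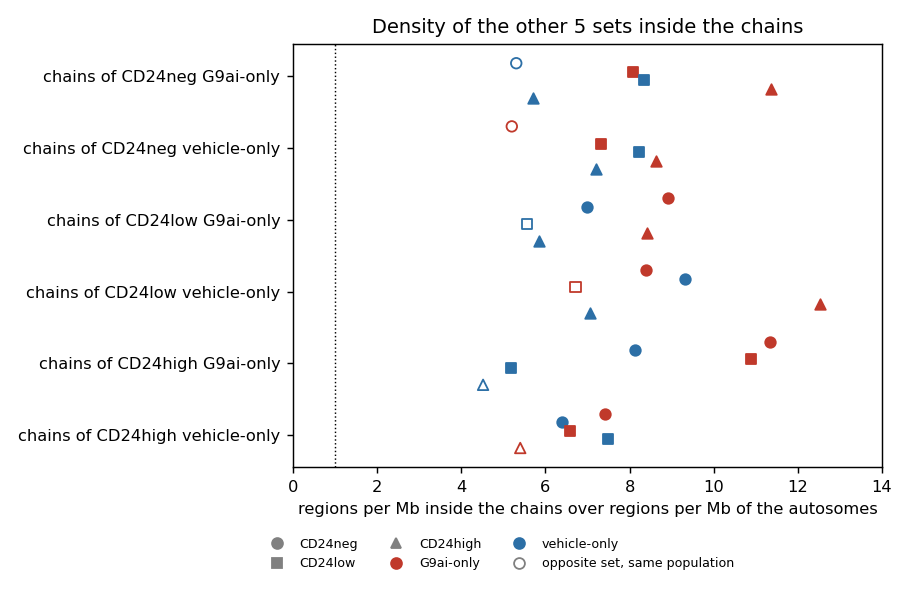
Density of the other 5 sets inside the chains of each set, as regions per Mb inside over regions per Mb of the autosomes; open symbols are the opposite direction of the same population, filled symbols the other populations, and the dotted line marks 1. All 30 points lie between 4.52 and 12.5.

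Position relative to genes was described with the RefSeq tables. All regions of a chain lay in 1 and the same protein-coding gene (its span and 1000 bp either side) in 547 of the 1554 chains (35.2%), while 334 chains (21.5%) covered 2 or more genes with none common to all regions and 276 (17.8%) touched no gene. A member within 1 kb of a listed start was found in 26.1% of the 1503 chains on the 18 autosomes with listed starts. Members lay within 1 kb of a listed start less often than the other regions of their set in 5 sets. The shares were, for example, 10.2% against 15.5% in CD24neg G9ai-only and 13.7% against 20.8% in CD24low vehicle-only. In CD24high G9ai-only the order was the other way, 22.9% of 48 members against 18.3%. The median distance to a listed start, by contrast, was shorter for members than for other regions in every set. It was 12689 bp against 16697 bp in CD24low vehicle-only and 21826 bp against 28252 bp in CD24low G9ai-only. Members had more gene neighbours by the mean: the mean number of gene midpoints within 50 kb was 2.01 against 1.58 in CD24high vehicle-only and 3.52 against 1.86 in CD24low vehicle-only. In CD24neg G9ai-only it was 1.72 against 1.64. The median was 1 for members and other regions alike in CD24high vehicle-only, both CD24neg sets and CD24low G9ai-only. It was 3 against 1 in CD24low vehicle-only and 2 against 1 in CD24high G9ai-only. Listed starts cover 16457 of 20665 autosomal protein-coding genes and none on chromosome 18, so these shares and distances can miss starts.

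The chains with the most regions in CD24low G9ai-only lay on chromosomes 7 and 16, with 7 regions each. The first (chr7:19691926-19750482) ran from Apoc1 and Apoe, which encode apolipoproteins, over Tomm40, the channel of mitochondrial protein import, to Nectin2. Nectin2 alone took 5 of its regions, and the last but 1 of the chain lay over the start whose upstream bases are printed above. In replicate 2 the 7 regions ranked between the 35.4 and 87.4 percentiles of the list, and in replicate 3 between the 3.68 and 99.0 percentiles, so both libraries listed all 7 but ranked them differently. CD24neg had 1 G9ai-only and 2 vehicle-only regions within the same span. The second chain (chr16:32619017-32704943) began in Tfrc, the transferrin receptor through which cells take up iron, and crossed Tnk2, a cytoplasmic tyrosine kinase, with a region that ended 19 bp before a listed Tnk2 start. This place was crowded in all populations: a CD24neg G9ai-only chain of 3 and a CD24high vehicle-only chain of 6 overlapped it, so chains of opposite direction in different populations interleaved over the same gene.

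Of the other CD24low G9ai-only chains named by size, 2 lay at genes of gene regulation. A chain of 6 (chr11:98754068-98795904) joined Thra, a thyroid hormone receptor, Nr1d1 and Msl1, a scaffold of a histone acetyltransferase complex. All 6 ranked at or above the 47.6 percentile in both lists, and the region over the Nr1d1 start stood at the 72.9 and 98.6 percentiles. Another 6 (chr5:131538692-131600702) lay inside Auts2, a very long gene linked to Polycomb regulation, and a chain of 5 on chromosome 4 included Gnl2 and Dnali1. Dnali1 encodes a dynein light intermediate chain of cilia, and its start was covered by the last region of that chain. Of the marker lists, the multiciliated list had 2 of 20 genes with a member in this set (10.0%), and the Notch and Wnt list and the club cell list 1 of 20 each (5%), beside 1.27% of all genes. Genes of these lists were also more often listed at all. A CD24low G9ai-only region of any kind lay at 50% of multiciliated, 35% of Notch and Wnt and 50% of club genes, beside 16.4% of all genes. Ccdc40, needed to build the ciliary axoneme, Notch3, a Notch receptor, and Kcnk2, a potassium channel on the club cell list, each held a chain of 3.

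Pecam1 encodes CD31, which the sort selected against, and 4 CD24low G9ai-only regions in a chain of their own lay in it (chr11:106658075-106674880). Their scores in replicate 2 ranged from 85 to 178 and in replicate 3 from 63 to 141, in the authors' units. Of the 16 genes of the endothelial list, Pecam1 was the 1 with a member in this set (6.25%, against 1.27% of all protein-coding genes), and 3 had a CD24low G9ai-only region of any kind (18.8%, against 16.4%). The part of endothelial cells in this result was not tested. On the immune list of 20 genes, and on the goblet and neuroendocrine lists of 10 each, no gene had a member in any set, beside 0.106% to 4.81% of all genes by set. Immune genes did have listed regions in 5 of the 6 sets.

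CD24neg vehicle-only chains included several at genes of alveolar type 2 cells, which make and secrete surfactant. Lpcat1, which makes surfactant phospholipid, held a chain of 4 (chr13:73480347-73505977), and Etv5, a transcription factor of these cells, a chain of 3 (chr16:22399663-22412937); no other set had a region in either span. Their scores were modest, up to the 52.2 percentile of the list at Lpcat1 and the 67.2 percentile at Etv5. Of 19 genes on the alveolar type 2 list, 5 had a member in this set (Etv5, Hc, Lgi3, Lpcat1 and Muc1), or 26.3%, beside 2.03% of all protein-coding genes. The same list had 2 in CD24low G9ai-only (Sftpa1 and Sftpd; 10.5%, beside 1.27% of all genes), 2 in CD24high vehicle-only (Muc1 and Ppp1r14c; 10.5%, beside 4.81%), 1 in CD24low vehicle-only (Sftpc; 5.26%, beside 0.140%) and 0 in both other sets. Genes of a list differ in length and in how often they were listed at all, and 10 of the 19 had a CD24neg vehicle-only region of any kind (52.6%, beside 19.4% of all genes).

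The largest CD24neg vehicle-only chain lay in the cluster of collectin genes, which encode secreted lectins of innate defence. Its 6 regions (chr14:41159836-41170888) were packed into 11053 bp at and beyond Mbl1, a mannose-binding lectin, with the first at the 95.2 percentile and the second at the 4.16 percentile of the list. A CD24low G9ai-only chain of 4 (chr14:41132084-41185776) spread over the same cluster from Sftpa1 to Sftpd, the surfactant proteins A and D, and none of its regions overlapped a region of the Mbl1 chain. Vehicle-only regions of CD24neg and G9ai-only regions of CD24low thus stood side by side in the same gene cluster. At Sftpc, which encodes surfactant protein C, a CD24low vehicle-only chain of 3 and a CD24neg vehicle-only chain of 3 overlapped in span (chromosome 14, with Bmp1, Lgi3 and Reep4), again with no region in common.

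**Figure D5:**
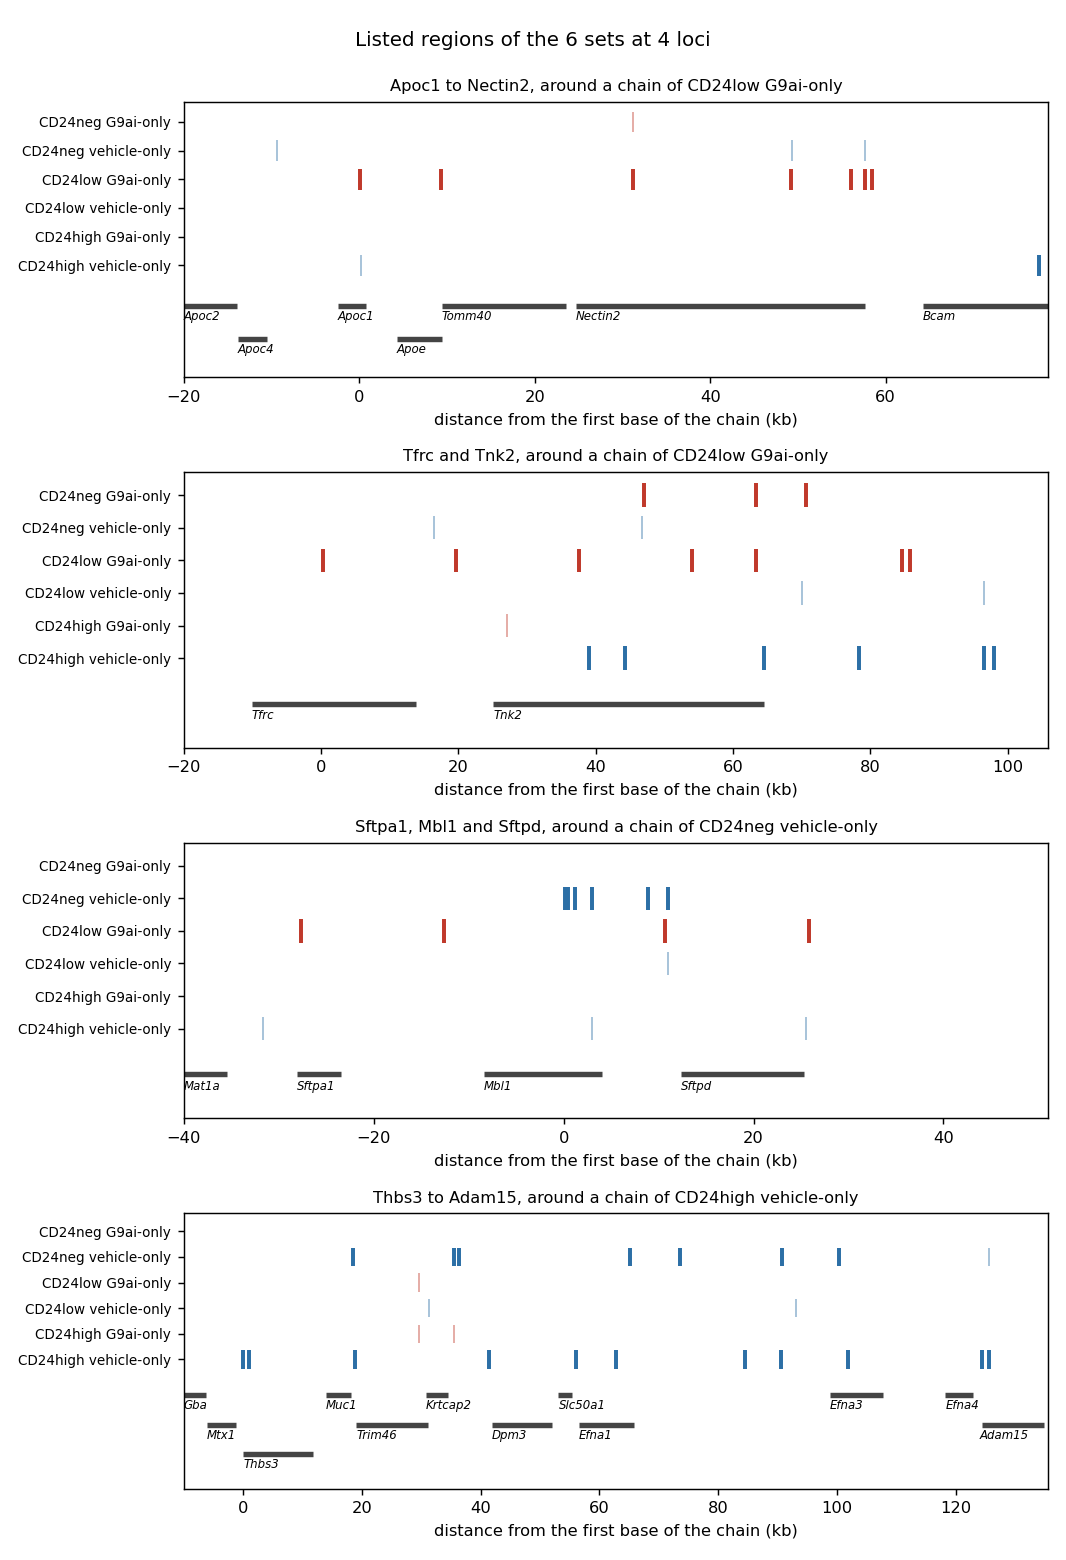
Listed regions of the 6 sets (rows; thick strokes are chain members, thin strokes single regions or pairs) at 4 loci, by distance in kb from the first base of the named chain; grey bars are protein-coding genes. At Tfrc and Tnk2, members of CD24neg G9ai-only (3), CD24low G9ai-only (7) and CD24high vehicle-only (6) interleave, and at Mbl1 the 6 CD24neg vehicle-only members lie between members of a CD24low G9ai-only chain.

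Other CD24neg vehicle-only chains of 6 covered Gigyf1 and Gnb2 on chromosome 5, a run of Btnl10, Rnf187, H2bu2, Trim17 and Trim11 on chromosome 11, and Mtcl1 on chromosome 17. Gnb2 encodes a G protein beta subunit, Trim11 and Trim17 ubiquitin ligases, and Mtcl1 a microtubule cross-linking protein. The chromosome 11 chain (chr11:58916916-58979952) had 3 regions within 1 kb of a listed start, at Btnl10, Rnf187 and H2bu2, and 5 CD24high vehicle-only regions in its span. The fifth chain (chr10:80917781-80933898) joined Lmnb2 to Gadd45b, a stress-response gene. Among genes with the most members, Lrrfip1 and Nav2 had 7 each, Lmo7 had 6, and Ston1, Lims1, Mtcl1, Cmip, Itpr1 and Plxna4 had 5. Cdh1, which encodes the epithelial adhesion molecule E-cadherin, held a chain of 3, as did Por, which passes electrons to the cytochrome P450 enzymes of club cells. Each was the 1 gene of 20 on its list, epithelial and club, with a member in this set (5%, beside 2.03% of all genes). A CD24neg vehicle-only region of any kind lay at 20% and 30% of those lists, beside 19.4% of all genes.

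The CD24neg G9ai-only set had fewer and smaller chains. Its largest, of 5 regions, lay in Slc23a2, a vitamin C transporter (chr2:132084324-132130214), where 5 CD24high vehicle-only regions lay in the same span. The second of its regions was the strongest in both lists, at the 89.5 percentile in replicate 2 and 98.7 in replicate 3, and the first was weak, at 35.7 and 0.349. A chain of 4 covered Nup50 from its start to its far end within 19738 bp. The 3 other chains of 4 named by size touched no protein-coding gene. Epb41l1, a membrane skeleton protein gene, and Arid1b, which encodes a subunit of the BAF chromatin remodeller, also had 4 members each.

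CD24low vehicle-only and CD24high G9ai-only, the smallest sets, had 20 and 17 chains. The single CD24low vehicle-only chain of 4 lay at Cxxc5, a CpG-binding zinc finger protein gene (chr18:35815680-35854628), and a CD24neg G9ai-only chain of 4 overlapped it, with 2 of the CD24neg regions over a CD24low vehicle-only region. A chain of 3 at Polr2a, which encodes the catalytic core of RNA polymerase II, with Slc35g3 and Zbtb4 had all 3 regions within 1 kb of a listed start in 8460 bp. Further chains of 3 lay in Lima1, an actin-binding protein gene, and at Ing2, a reader of histone methylation. In CD24high G9ai-only the shortest chains, all of 3, were in a gene-free stretch of chromosome 5, at Socs3, at Tradd, Fbxl8 and Hsf4, at Klf5 and at Trim7. Socs3 had 2 regions near its start, at the 70.0 and 80.8 percentiles in replicate 2 and 58.0 and 67.0 in replicate 3. Klf5, an epithelial transcription factor, held all 3 of its regions between the 56.5 and 93.0 percentiles of both lists. It was the 1 gene of 20 on the epithelial list with a member in this set (5%, beside 0.106% of all genes). The same list had 2 genes with a member in CD24high vehicle-only (Elf5 and Foxa1, 10%, beside 4.81%). A region of any kind lay at 25% of the list in CD24high G9ai-only, beside 8.32% of all genes, and at 35% in CD24high vehicle-only, beside 25.9%. Tradd is an adaptor of tumour necrosis factor receptors and Hsf4 a heat shock transcription factor. Their chain was the only CD24high G9ai-only chain to overlap a CD24low G9ai-only chain, and 2 regions were in common.

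CD24high vehicle-only had the longest runs. The largest chain held 13 regions over 137799 bp (chr6:136418009-136555807), the last 3 of them in Atf7ip, a partner of the H3K9 methyltransferase SETDB1, and 9 outside any protein-coding gene. Its ranks ran from the 3.43 to the 90.6 percentile, and the 5 other sets had 7 regions in the span. Atf7ip was the 1 gene of 23 matched on the list of H3K9 and DNA methylation genes with a member in this set, 4.35% beside 4.81% of all protein-coding genes, and no gene of that list had a member in another set. A chain of 12 (chr10:80273982-80438290) crossed 8 genes from Dazap1, an RNA-binding protein gene, past Apc2 to Tcf3, an E protein transcription factor. Its highest ranks were the 96.9 percentile at Uqcr11, a subunit of respiratory complex III, and the 95.6 at Plk5.

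The chain of 11 on chromosome 3 (chr3:89215153-89340750) ran from Thbs3, a thrombospondin gene, through Muc1, a transmembrane mucin, and the ephrin ligands Efna1 and Efna3 to Adam15, a membrane metalloprotease. The regions at Slc50a1 and Efna1 ranked highest, at the 94.9 and 95.9 percentiles. CD24neg vehicle-only had 8 regions in the same span, of which 7 formed 2 chains of 4 and 3, and 2 of the 8 overlapped a region of the chain of 11. Chains of 9 lay at Tnni1, a troponin I gene, where 6 regions fell in the gene, and from Kcnk6 over Spint2, an inhibitor of membrane serine proteases, to the start of Ppp1r14a.

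Several long genes held more than 1 CD24high vehicle-only chain. Msi2, an RNA-binding regulator of progenitor cells, had 11 member regions, Zfp608 and Lmo7 had 10, Sorcs2 had 9, and Notch2, Ano6 and Runx1 had 8. Notch2, a Notch receptor, held 4 regions in a chain of 6 and 4 more in a second chain, and Jag1, a Notch ligand, held 3, so 2 of the 20 genes on the Notch and Wnt list had a member (10.0%, beside 4.81% of all genes). Lmo7 had a chain of 7 and a chain of 3, and CD24neg vehicle-only chains of 3 overlapped both. On the alveolar type 1 list 3 of 20 genes had a member (Hopx, Lmo7 and Vegfa; 15%), on the multiciliated list 2 of 20 (Cfap43 and Dnah5; 10%), beside the same 4.81%. Hopx was also the 1 alveolar type 1 gene with a member in CD24low G9ai-only, the opposite direction (5%, beside 1.27% of all genes). Lmo7 was the 1 such gene in CD24neg vehicle-only (5%, beside 2.03%). A CD24high vehicle-only region of any kind lay at 70% of alveolar type 1, 55% of multiciliated and 45% of Notch and Wnt genes, beside 25.9% of all genes. Icam1, an adhesion molecule, held 4 regions of a chain of 5, with ranks up to the 94.2 percentile. It was the 1 gene of 15 on the basal list with a member (6.67%), and 20% of that list had a region of any kind.

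Chains of different populations overlapped most between the larger sets. Between CD24neg vehicle-only and CD24high vehicle-only, 75 pairs of chains overlapped in span, covering 19.9% of the former and 8.72% of the latter, and 75 of the 257 CD24neg regions in these pairs overlapped a CD24high region. Between CD24low G9ai-only and CD24high vehicle-only, sets of opposite direction, there were 41 pairs (16.4% and 4.90%), with 43 of 153 regions overlapping. CD24neg vehicle-only and CD24low G9ai-only gave 22 pairs (5.84% and 9.02%). CD24neg G9ai-only and CD24high vehicle-only, again of opposite direction, gave 11 pairs (18.6% and 1.31%), among them Slc23a2 and Cd82. CD24neg G9ai-only and CD24low G9ai-only gave 7 pairs (11.9% and 2.87%), at places such as Tfrc and Tnk2, Cd82, Myh14 and Dcdc2a. At Dcdc2a, which encodes a doublecortin family protein, all 3 regions of both chains coincided (chromosome 13). CD24low vehicle-only and CD24high G9ai-only had no overlapping pair. The difference between same and opposite directions was not tested.

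Some chains stood apart by their length or place. In all, 26 chains (79 regions) spanned less than 3 kb, so that their regions were separate peaks of nearly the same place. Within 100 kb of the lowest listed base of a chromosome lay 4 chains (16 regions), on chromosomes 2, 9 and 11. On chromosome 9 a CD24low vehicle-only chain of 3 (chr9:3001398-3036100) and a CD24high vehicle-only chain of 7 (chr9:3004571-3038216) overlapped there with 2 regions in common. Chromosomes differed in the share of regions in chains: in CD24high vehicle-only it reached 30.8% on chromosome 15, and in CD24low G9ai-only 19.9% on chromosome 7.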

How the data were processed

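ATAC-seq libraries came from 10000 sorted cells each. The tools named are FastQC, Bowtie2 and MACS2 with build mm10, per the submitters' processing notes; settings, read shifting and duplicate removal are not stated there. The authors' deposited lists give each peak's position, a name and a score of unstated scale, used only to rank peaks; names carry the library, so peaks were called per library. No read counts come with the lists, so depth is unknown. Repeated lines (47 to 472 per list) were dropped. Groups and replicate numbers came from the labels; replicates are separate samples of mice per the design text.

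Chains were built with Python 3.11.15 and numpy 2.4.6 (largest gap 25000 bp, at least 3 regions). Even placement used uniform spacings between the lowest and highest listed base of each chromosome; placement at listed positions gave each of 32636 merged regions, the set's own included, the same chance. Both are closed forms, tested on simulated data; the second was added after the data were seen. Ranks are mid-rank percentiles within a list. A planned exact permutation test of the CD24low arms is left out of the text, since it uses the lists that chose the regions. Genes, starts and promoter windows came from RefSeq tables of GRCm38.p6.

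Named genes were those at the 5 chains per set with the most regions (ties to the shorter span), up to 10 genes per set with the most members, genes of 14 marker lists (247 of 251 names matched) with 3 or more members of 1 chain, and genes at chains overlapping between populations (up to 10 pairs per combination); further list genes with a member, named after their values were seen, illustrate counts. Symbols starting Gm or Olfr or ending in Rik were not named, and a gene that the rule selects is not reported here. The regions and lists were chosen with earlier results of these data known. Alternatives were other gaps, merging within 100 bp, the upper 50% of scores, lists of equal length, chromosome X and leaving out each replicate.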

Additional observations from a re-analysis of the deposited data

Results flagged for a closer look

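The number of peaks in chains per library moved in opposite directions in the populations. The G9ai mean over the vehicle mean was 13.3 in CD24low, where each G9ai list was above each vehicle list, and 0.189 in CD24neg and 0.0207 in CD24high, where each G9ai list was below the vehicle list. The difference between populations was not tested, and CD24neg and CD24high have 1 vehicle library each. List length moved with it in every population, and at equal list length the CD24low ratio was 0.797.

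Chromosome X, which the autosomal counts leave out, also held chains: 12 regions in 4 chains in CD24neg vehicle-only, 13 in 4 in CD24low G9ai-only and 17 in 5 in CD24high vehicle-only. These were 6.19%, 7.78% and 7.76% of the X regions of each set, below the autosomal 14.6%, 11.8% and 23.9%.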

How the results depend on the processing

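Sets are given in the order CD24neg G9ai-only, CD24neg vehicle-only, CD24low G9ai-only, CD24low vehicle-only, CD24high G9ai-only, CD24high vehicle-only. A largest gap of 10 kb left 36, 315, 194, 9, 15 and 847 regions in chains, and 50 kb gave 486, 2735, 1857, 156, 170 and 5843. The highest-scoring 50% of each list left 6, 194, 29, 9, 3 and 843. Lists cut to 2552 peaks left 15, 21, 4, 61, 40 and 108, so that CD24low had more vehicle-only than G9ai-only members; fewer peaks enter by construction. The CD24low ratio of peaks in chains per library, G9ai over vehicle, turned to 0.797 there and otherwise ran from 9.22 to 17.1. These per-library alternatives were added after the data were seen. Merging within 100 bp or adding chromosome X kept all 6 counts within 1.5 times. Leaving out 1 replicate gave 211 to 246, 1252 to 1253, 823 to 948, 61 to 70, 57 to 57 and 3026 to 3029, and a CD24low ratio of 13.01 to 13.6. The lists of an arm were much alike: the CD24low G9ai lists held 7204 and 7189 autosomal peaks, and 7002 regions were G9ai-only. Leaving 1 out could thus change little, and the single vehicle lists of CD24neg and CD24high could not be left out. Such ranges do not show how well replicates match. Over all these settings the count stayed at least 3.17 times even placement, while its ratio to placement at listed positions ran from 0.402 to 7.48, with values below 1 in 5 of the sets under some setting. The upper end rests on 9 CD24low vehicle-only regions in 3 chains. Of 260 recounts of the 30 largest named chains, 197 stayed within 1.5 times and 52 left no chain, most of these at equal list length (21) or in the upper 50% of scores (19). The missing replicates and unknown depth limit every count. No paired analysis was possible because the counts of regions come from no fit or test.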
